A study of Mus musculus with 30 samples.

Results

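The 10 genes described here steer muscle gene expression during the step from myoblast to myotube: the transcription factors Mef2a, Mef2c and Mef2d, and the RNA-binding proteins Mbnl1, Mbnl2, Mbnl3, Celf1, Celf2, Rbfox1 and Rbm24, which regulate alternative splicing. They were chosen by name as 2 connected families of regulators and make up 10 of the 30205 genes to which the quantified transcripts were assigned. RNA-seq was available from 30 libraries in 10 conditions of 3 libraries each. The C2C12 mouse myoblast line (from ATCC, used up to passage 8) was sampled at confluence on plastic before serum restriction (day 0), and after 4 and 7 days in 2% horse serum on plastic, on unpatterned gelatin hydrogel and on patterned gelatin hydrogel, which carries grooves that align the cells. Primary myoblasts came from hindlimb muscle of 3 8-week-old C57/Bl6J mice and were sampled at day 0, labelled as on plastic, and at days 4 and 7 on patterned gelatin, so in the primary cells day and substrate changed together. The methods give an extracellular matrix coating for the dishes of the primary myoblasts and a brief trypsin treatment that enriched myotubes from the day 4 and day 7 cultures of both cell sources. The paper used C2C12 cells of 2 batches, prepared 3 separate cultures for each condition and describes more libraries than the 30 available here. The labels do not tell which batch or which mouse a library came from. No group carried a mutation or a drug.

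On the mouse genome (GRCm38, GENCODE M21) Mef2a lies at chr7:67231163-67372858 on the minus strand, Mef2c at chr13:83504034-83667080 on the plus strand and Mef2d at chr3:88142372-88172086 on the plus strand. Mbnl1 lies at chr3:60472830-60629750, Mbnl2 at chr14:120275669-120431697, Celf1 at chr2:90940382-91019497, Rbfox1 at chr16:5885355-7411526 and Rbm24 at chr13:46418434-46431095, all on the plus strand. Mbnl3 at chrX:51117269-51206532 and Celf2 at chr2:6539694-7509563 are on the minus strand. All 10 genes passed the filter on low counts in every fit. Mef2a, Mbnl1, Celf1 and Celf2 had at least 3191 estimated counts in every library, while Mbnl3 had between 52.0 and 1049, Mef2c between 48.0 and 68595 and Rbfox1 between 6.01 and 3562, so their lowest values are the least precise.

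Mef2 proteins are MADS-box transcription factors that bind AT-rich sites in the promoters and enhancers of muscle genes and act together with myogenic bHLH factors such as myogenin. Their transcripts are themselves spliced differently in muscle, most clearly at a pair of mutually exclusive exons in Mef2d, where a ubiquitous exon is exchanged for a muscle one during differentiation. The splicing regulators fall into groups with opposite habits: Mbnl proteins bind YGCY motifs and favour adult splicing patterns, Celf proteins bind GU-rich sites and often oppose them, Rbfox1 binds GCAUG, and Rbm24 promotes the inclusion of muscle exons. Loss of Mbnl activity and excess Celf1 activity are the known splicing defects of myotonic dystrophy.

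Library depth, in units of 1e6 estimated counts, lay between 13.1 and 59.4 with a median of 27.3, and the lowest value belonged to replicate 3 of C2C12 at day 7 on patterned gelatin. The labelled cell types were checked against marker genes. The summed TPM (a transcript level scaled to transcript length and library size) of 8 myotube markers lay between 585 and 845 in the C2C12 day 0 libraries and between 11197 and 15333 in all later C2C12 libraries. That of 5 proliferation markers lay between 994 and 1146 at day 0 and between 61.5 and 139 later. The primary day 0 libraries already held 2149, 1825 and 1026 TPM of the myotube markers, and Myog, which encodes myogenin, was at 719, 710 and 255 TPM in them. Primary replicate 3 was the lowest of its condition in the myotube sum at every day, with 10943 TPM against 15742 and 16336 TPM at day 4 and 8840 TPM against 19608 and 16775 TPM at day 7. The sum of 5 fibroblast markers lay between 381 and 1153 TPM in C2C12, with the highest value in replicate 3 at day 7 on patterned gelatin, between 220 and 296 TPM in primary cells at day 0 and between 6.71 and 102 TPM in primary cells later. Summed markers of immune cells stayed between 1.19 and 4.88 TPM, those of Schwann cells between 0.72 and 2.65 TPM, those of adipocytes at no more than 0.37 TPM, and those of endothelial cells below 6.15 TPM except for 14.1 TPM in that same C2C12 library. Smooth muscle and pericyte markers summed to 23.4, 25.8 and 59.0 TPM at primary day 0, the last in replicate 3. That sum was 0.67 to 9.97 TPM in primary cells later and 5.57 to 13.9 TPM in C2C12. The sum of 5 myoblast markers was not highest at day 0. It lay between 1050 and 1278 TPM at C2C12 day 0 and between 2260 and 4003 TPM in later C2C12 libraries. In primary cells it was 1885 to 2072 TPM at day 0 and 2124 to 2800 TPM later. For primary cells the values without the 3 libraries numbered 3 are therefore given too. For the patterned day 7 libraries of C2C12 values without 1 of them are given beside calls that changed. In bulk RNA, fewer cells of a type and less RNA per cell cannot be told apart, and this holds for every level given here.

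The first comparison asked how the genes changed as C2C12 myoblasts became myotubes. On plastic, 6 of the 10 genes rose and 1 fell at day 4 against day 0, and again 6 rose and 1 fell at day 7 against day 0 (edgeR quasi-likelihood test, adjusted p under 0.05). Over all 14844 genes tested, 58.0% were called at day 4 and 62.8% at day 7, so a call by itself is common here and the sizes say more. The median log2 fold change of the 10 genes was 0.75 at day 4 and 0.81 at day 7, against 0.00 and 0.02 over all genes. Both comparisons share the day 0 libraries.

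Mef2c, the family member known for its strong muscle and heart expression, had the widest range of the Mef2 genes. It was at 2.43, 2.34 and 2.57 TPM in the C2C12 day 0 libraries, at 156, 124 and 175 TPM at day 4 on plastic, and at 354, 316 and 301 TPM at day 7 on plastic. No library of a later day came near the day 0 level, and the day 7 libraries on plastic lay above all of day 4 on that substrate. Mef2c rose by a log2 fold change of 6.24 ± 0.21 (standard error) at day 4 and of 7.11 ± 0.22 at day 7 against day 0 (edgeR adjusted p = 7.7e-15 and 1.8e-15).

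Mef2d, which is expressed in many tissues and carries a muscle-specific exon, was at 48.9, 56.6 and 50.2 TPM at day 0, at 138, 149 and 137 TPM at day 4 and at 90.2, 150 and 114 TPM at day 7 on plastic. Its day 7 libraries spread widely, from below all day 4 libraries to just above them. Mef2d rose by 1.56 ± 0.19 at day 4 and by 1.08 ± 0.19 at day 7 on the log2 scale (edgeR adjusted p = 6.8e-07 and 4.8e-05). Mef2a, the broadly expressed member, was at 83.5, 84.5 and 84.7 TPM at day 0, at 142, 134 and 150 TPM at day 4 and at 135, 166 and 148 TPM at day 7. The day 0 libraries agreed closely and all later ones were higher. Mef2a rose by 1.02 ± 0.12 at day 4 and by 0.92 ± 0.12 at day 7 on the log2 scale (edgeR adjusted p = 5.7e-07 and 1.7e-06). The calls of all 3 genes against day 0 held in 8 of 8 alternative settings and with any of the 21 C2C12 libraries left out.

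**Figure D1:**
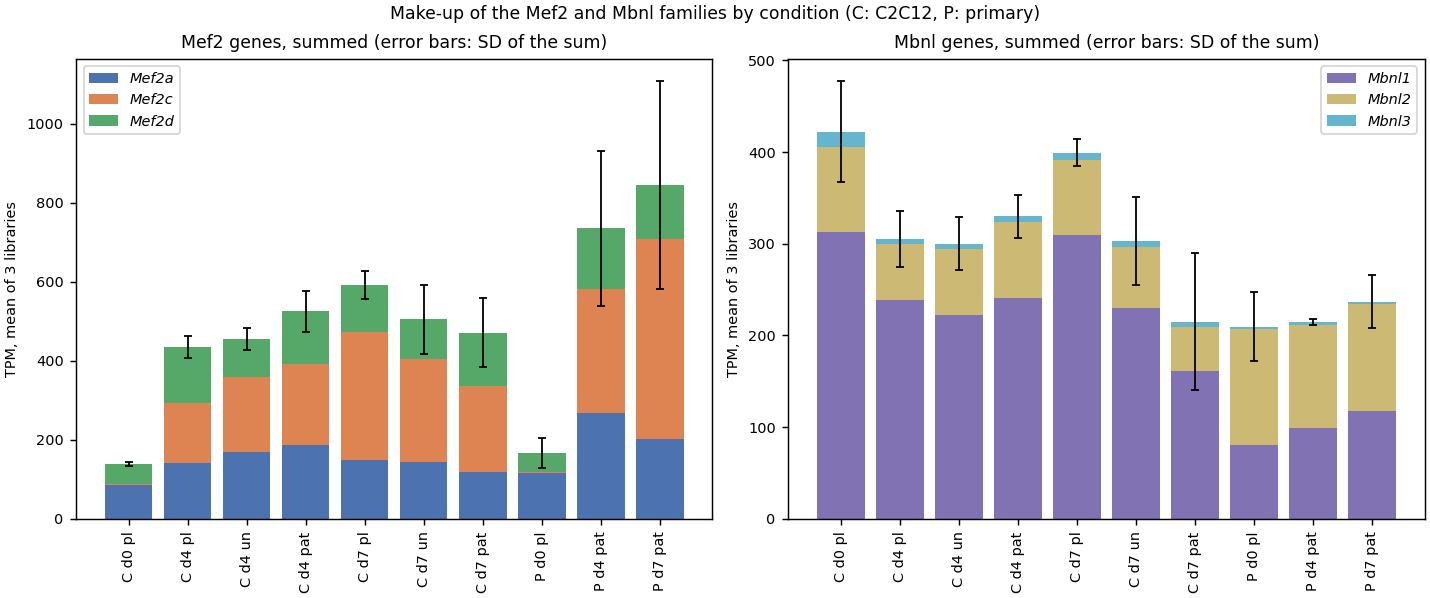
Mean TPM of the Mef2 genes and of the Mbnl genes in the 10 conditions, stacked, with TPM on the vertical axis, the conditions on the horizontal axis and an error bar of 1 SD of the sum over 3 libraries. Mef2c grows from a sliver of the Mef2 sum at day 0 to its largest part at day 7, and Mbnl2 takes a larger part of the Mbnl sum in primary cells than in C2C12.

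These unequal changes altered the makeup of the Mef2 family. In C2C12 at day 0, Mef2a held 60.8%, Mef2d 37.4% and Mef2c 1.77% of the summed Mef2 TPM, which was 139 ± 4.43 TPM (SD, n = 3). At day 4 on plastic the 3 genes were nearly even, at 32.7%, 32.6% and 34.7% of 435 ± 27.6 TPM. At day 7 on plastic Mef2c held 54.9% of 591 ± 35.6 TPM. In primary cells Mef2c went from 1.79% of 166 ± 38.8 TPM at day 0 to 41.2% of 735 ± 197 TPM at day 4 and 58.4% of 846 ± 263 TPM at day 7. Shares and sums are descriptions of TPM, which is per length and so allows levels to be set side by side between genes.

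The Mef2 transcripts were described next, as the share of a gene's TPM carried by transcripts that contain each alternative coding exon. The quantified set held 8 of 12 annotated transcripts of Mef2a, 3 of 31 of Mef2c and 7 of 7 of Mef2d (GENCODE M21), so only exons that distinguish these could be followed, and 7 such exons are described here. The mutually exclusive pair of Mef2d is shown because the share of its muscle exon was higher after day 0 in both cell sources. It consists of a 138-base exon at chr3:88158034-88158171, the ubiquitous form, and a 135-base exon at chr3:88158221-88158355, the muscle form, both on the plus strand of GRCm38. Capitals mark the exon and lower case the 12 bases that precede and follow it in the transcript.
Mef2d 138-base exon: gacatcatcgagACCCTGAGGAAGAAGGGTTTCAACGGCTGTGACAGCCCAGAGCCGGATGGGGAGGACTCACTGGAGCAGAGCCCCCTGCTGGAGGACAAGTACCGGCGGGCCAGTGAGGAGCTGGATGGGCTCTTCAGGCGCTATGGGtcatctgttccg
Mef2d 135-base exon: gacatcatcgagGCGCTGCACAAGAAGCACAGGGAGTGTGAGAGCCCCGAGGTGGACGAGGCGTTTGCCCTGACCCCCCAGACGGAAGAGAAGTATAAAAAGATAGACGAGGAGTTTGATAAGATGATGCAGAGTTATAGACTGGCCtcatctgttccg
By alignment the muscle exon of Mef2d matched the ubiquitous exon at 74 of 138 positions (53.6%). All 7 exons were a multiple of 3 bases long.

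The muscle exon of Mef2d was used by a single quantified transcript, Mef2d-202. Its share of Mef2d TPM was 12.5%, 13.5% and 13.0% in the C2C12 day 0 libraries, 26.6%, 28.5% and 27.8% at day 4 on plastic and 26.0%, 27.5% and 27.7% at day 7 on plastic. The day 0 libraries were low, with no overlap with any later C2C12 library. In primary cells the share was 16.2%, 17.5% and 18.4% at day 0, 30.5%, 29.6% and 30.3% at day 4 and 31.7%, 31.6% and 32.2% at day 7. Replicate 3, which had the lowest Mef2d level of the primary libraries at each day, did not differ from its partners in this share. The ubiquitous 138-base exon went the other way, from a mean of 72.7% at C2C12 day 0 to 63.9% and 62.7% at days 4 and 7 on plastic, and from 72.6% at primary day 0 to 65.1% and 62.3% on days 4 and 7. Thus the ubiquitous exon still carried most of Mef2d TPM in every condition. Mef2d-203, of similar length to Mef2d-202 (1791 and 1767 bases), carries the ubiquitous exon. Its mean share was 8.71% at C2C12 day 0 and 13.0% at day 4 on plastic. Of these 2 transcripts alone, Mef2d-202 held 57.3%, 68.2% and 55.2% at C2C12 day 0. It held 67.5%, 69.8% and 66.9% at day 4 on plastic, which overlap, and 70.7%, 69.0% and 70.6% at day 7, which do not. In primary cells it held 61.45%, 58.9% and 65.9% at day 0 and 67.2% to 72.8% later.

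**Figure D2:**
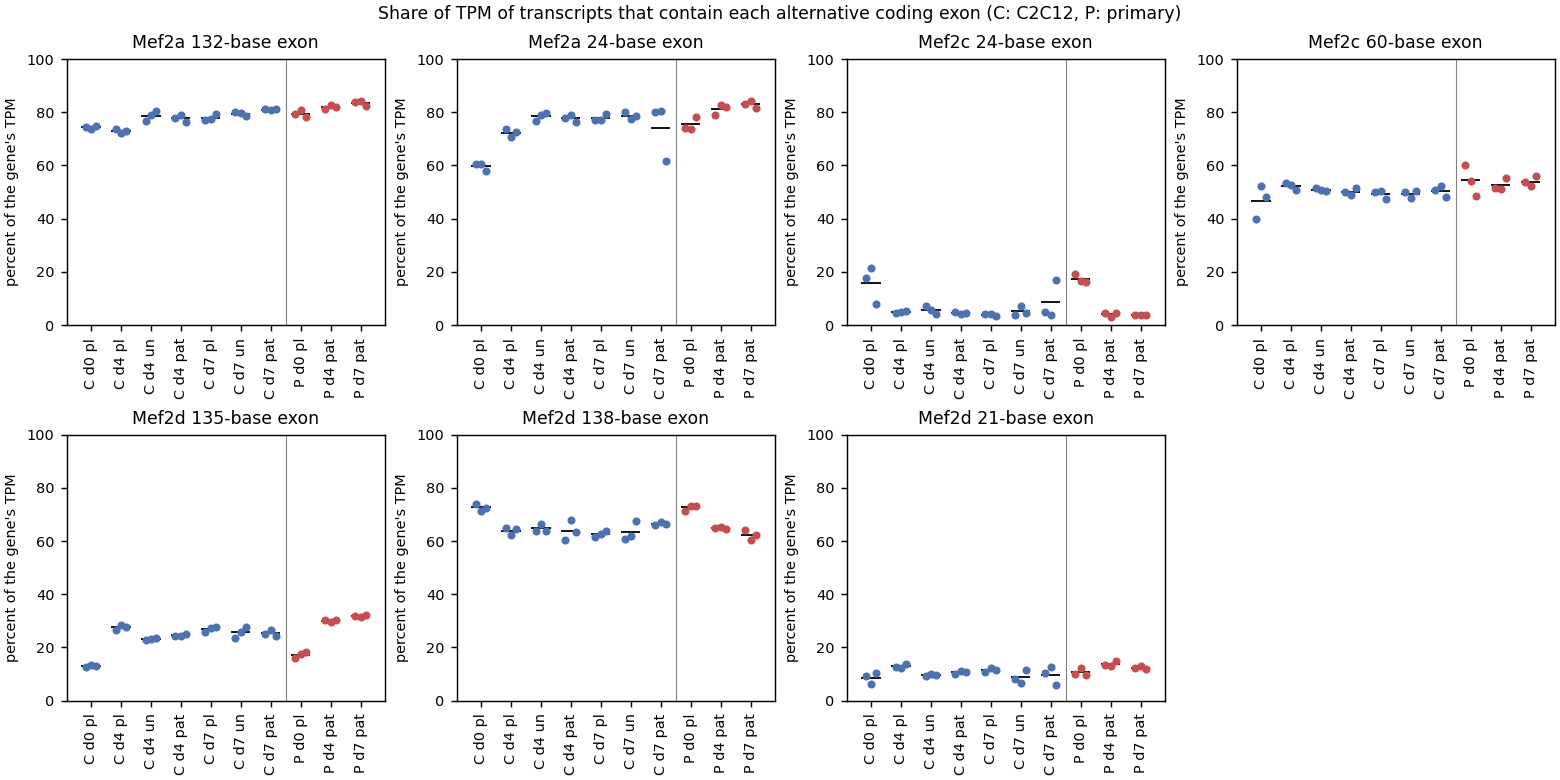
Share of the gene's TPM (percent, vertical axis) in transcripts that contain each of 7 alternative exons of Mef2a, Mef2c and Mef2d, in the 10 conditions (horizontal axis), with a point for each library and a line at the mean. The Mef2d 135-base exon lies between 12.5% and 18.4% in the 6 day 0 libraries and above 22.7% or at it in all later ones.

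The Mef2c 24-base exon (chr13:83654598-83654621, plus strand, transcript Mef2c-203) is shown because its share was lower after day 0 in both cell sources; a Mef2a exon of equal length (chr7:67244521-67244544, minus strand, transcript Mef2a-208) is shown because its share was higher.
Mef2c 24-base exon: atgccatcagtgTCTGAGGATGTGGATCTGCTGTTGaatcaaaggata
Mef2a 24-base exon: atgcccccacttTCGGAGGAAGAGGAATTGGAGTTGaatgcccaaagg
Transcripts with the Mef2c exon held 17.8%, 21.4% and 7.88% of Mef2c TPM in the C2C12 day 0 libraries, where the gene itself was near 2.45 TPM, 4.68%, 4.77% and 5.21% at day 4 on plastic and 4.02%, 4.22% and 3.56% at day 7 on plastic. Primary cells had 19.2%, 16.5% and 16.4% at day 0 and between 2.91% and 4.71% in the 6 later libraries. A single C2C12 library, replicate 3 at day 7 on patterned gelatin, stood apart at 16.9% against 4.79% and 3.79%. The Mef2a exon was carried by 60.5%, 60.7% and 58.0% of Mef2a TPM in the C2C12 day 0 libraries, by 73.6%, 70.6% and 72.4% at day 4 on plastic and by 77.1%, 77.1% and 79.3% at day 7 on plastic. The same patterned day 7 library was low here, at 61.8% against 80.0% and 80.5%. In primary cells the share was 74.1%, 73.8% and 78.3% at day 0 and between 79.0% and 84.4% later. Part of the C2C12 difference lay in Mef2a-204, which lacks the 24-base exon and held 14.0%, 11.3% and 12.3% of Mef2a TPM at C2C12 day 0 but was at or near 0 in all 18 later C2C12 libraries, and at 0.30%, 4.89% and 0.09% in primary cells at day 0.

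Transcript shares were tested in 2 ways: by the change of a transcript relative to its gene (edgeR diffSpliceDGE) and by limma on the log2 ratio of a transcript to the rest of its gene, the second being added after the data were seen. Between 13 and 15 transcripts of the Mef2 genes were tested in a comparison. At day 4 against day 0 in C2C12 each test called 3 of 15 and both called 2, against 2.23% and 4.94% of all transcripts called by diffSpliceDGE and by the ratio. At day 7 against day 0 the tests called 3 and 4 of 15, with 3 in common, against 3.05% and 6.5% of all transcripts. Mef2d-202 passed both tests at both days, with a relative log2 change of 1.19 (diffSpliceDGE adjusted p = 0.0013) and a log2 ratio of 1.33 (limma adjusted p = 2.9e-05) at day 4, and of 1.17 (adjusted p = 0.0014) and 1.29 (limma adjusted p = 3.3e-05) at day 7. Mef2c-203 passed both tests at day 7, with a relative log2 change of -2.05 (diffSpliceDGE adjusted p = 0.0012) and a log2 ratio of -2.10 (limma adjusted p = 0.019), but only the first at day 4 (adjusted p = 0.011 and 0.058). Mef2a-204 was lower in both comparisons, with no fold given since it was listed at 0 in most later libraries. Mef2a-208 passed only the ratio test, at 1.15 on day 4 and 1.56 on day 7 (limma adjusted p = 0.0016 and 7.6e-05).

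In primary cells diffSpliceDGE called no Mef2 transcript against day 0, while the ratio test called 1 of 13 at day 4 and 2 of 13 at day 7, against 1.32% and 1.75% of all transcripts at day 4 and 1.61% and 2.44% at day 7 by the 2 tests. The calls were Mef2c-203, with a log2 ratio of -2.40 and -2.47 (limma adjusted p = 0.0066 and 0.0050), and Mef2d-202 at day 7, with 1.16 (limma adjusted p = 0.033). With the replicate number as a block, which pairs primary libraries of the same number, diffSpliceDGE called Mef2d-202 at both days (adjusted p = 0.031 and 0.013) and Mef2c-203 at day 7 (adjusted p = 0.039). Between primary cells and C2C12 the ratio test called 3 Mef2a transcripts at day 0 and diffSpliceDGE none, against 9.77% and 2.78% of all transcripts. Mef2a-208 had the higher ratio in primary cells (1.31, limma adjusted p = 9.7e-05), and Mef2a-207 and Mef2a-204 the lower (-1.43 and -4.85, limma adjusted p = 0.016 and 0.00045). Only Mef2a-201, at 3.73%, 1.94% and 1.19% in C2C12 at day 4 on patterned gelatin and listed at 0 in the primary libraries, passed both tests at day 4 (diffSpliceDGE adjusted p = 0.0031 and limma adjusted p = 0.045), where 2.14% and 5.66% of all transcripts were called. At day 7 it passed diffSpliceDGE alone (adjusted p = 0.0010 and 0.28 by the 2 tests, against 4.25% and 11.6% of all transcripts), and only with replicate 3 of the C2C12 libraries, where it held 13.4% of Mef2a TPM and was near 0 in the other libraries.

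Few Mef2 transcripts were called after day 4 or between substrates, by tests that miss many shifts. On data simulated for day 4 against day 0, diffSpliceDGE recovered 0% of shifts of log2 1 and 26.7% of those of log2 2. The ratio test recovered 4.71% and 50%, so a missing call does not show an equal share. Of the 9 C2C12 comparisons that do not use day 0, 7 held no call by either test. The exceptions were Mef2a-205 at day 7 against day 4 on patterned gelatin (diffSpliceDGE adjusted p = 0.019, limma adjusted p = 0.11, against 3.32% and 2.5% of all transcripts) and Mef2a-201 at day 4 on unpatterned gelatin against plastic (diffSpliceDGE adjusted p = 0.0047, limma adjusted p = 0.60, against 0.687% and 0.0203%). The first rested on replicate 3, where Mef2a-205 held 19.3% of Mef2a TPM against 1.07% and 0.293% in the other libraries, and it was not called without that library, where Mef2a-201 was called instead (diffSpliceDGE adjusted p = 0.0024). Exon shares in C2C12 were compared by an exact permutation test (two-sided), with day 7 set against day 4 within substrate and patterned against unpatterned gelatin within day, which made 16 tests. The Mef2a 132-base exon (chr7:67268269-67268400, minus strand) was 3.08 points higher at day 7 than at day 4 as a mean over the substrates (exact permutation p = 0.00175, adjusted p = 0.028). Its mean share went from 72.9% to 78.0% on plastic and from 77.7% to 81.0% on patterned gelatin. On unpatterned gelatin it went from 78.7% to 79.5%, and the libraries of days 4 and 7 overlapped there. The Mef2d muscle exon, at 0.93 points higher at day 7, did not pass (permutation adjusted p = 0.61). With shares of estimated counts instead of TPM the Mef2a exon did not pass (permutation adjusted p = 0.062). For a single pair of conditions with 3 libraries each the smallest exact p is 0.1, so no pair could pass.

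Of the splicing regulators, Rbfox1 and Rbm24 were the ones that rose with C2C12 differentiation by more than a log2 fold change of 1. Rbfox1, whose binding near exons activates many muscle splicing events, was at 0.138, 0.331 and 0.191 TPM at day 0, at 10.1, 10.5 and 10.2 TPM at day 4 and at 11.1, 15.6 and 14.7 TPM at day 7 on plastic. The day 0 level rests on few reads, with 6.01 estimated counts in the lowest library. It rose by 5.60 ± 0.23 at day 4 and by 5.92 ± 0.23 at day 7 on the log2 scale (edgeR adjusted p = 1e-13 and 3.1e-14). Rbm24, which stabilizes muscle transcripts as well as promoting muscle exons, was at 19.8, 26.4 and 26.4 TPM at day 0, at 96.6, 105 and 97.3 TPM at day 4 and at 114, 132 and 139 TPM at day 7 on plastic. Its day 4 libraries lay far above day 0 and close together. Rbm24 rose by 2.25 ± 0.12 and 2.39 ± 0.12 on the log2 scale (edgeR adjusted p = 5.5e-12 and 1.8e-12).

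**Figure D3:**
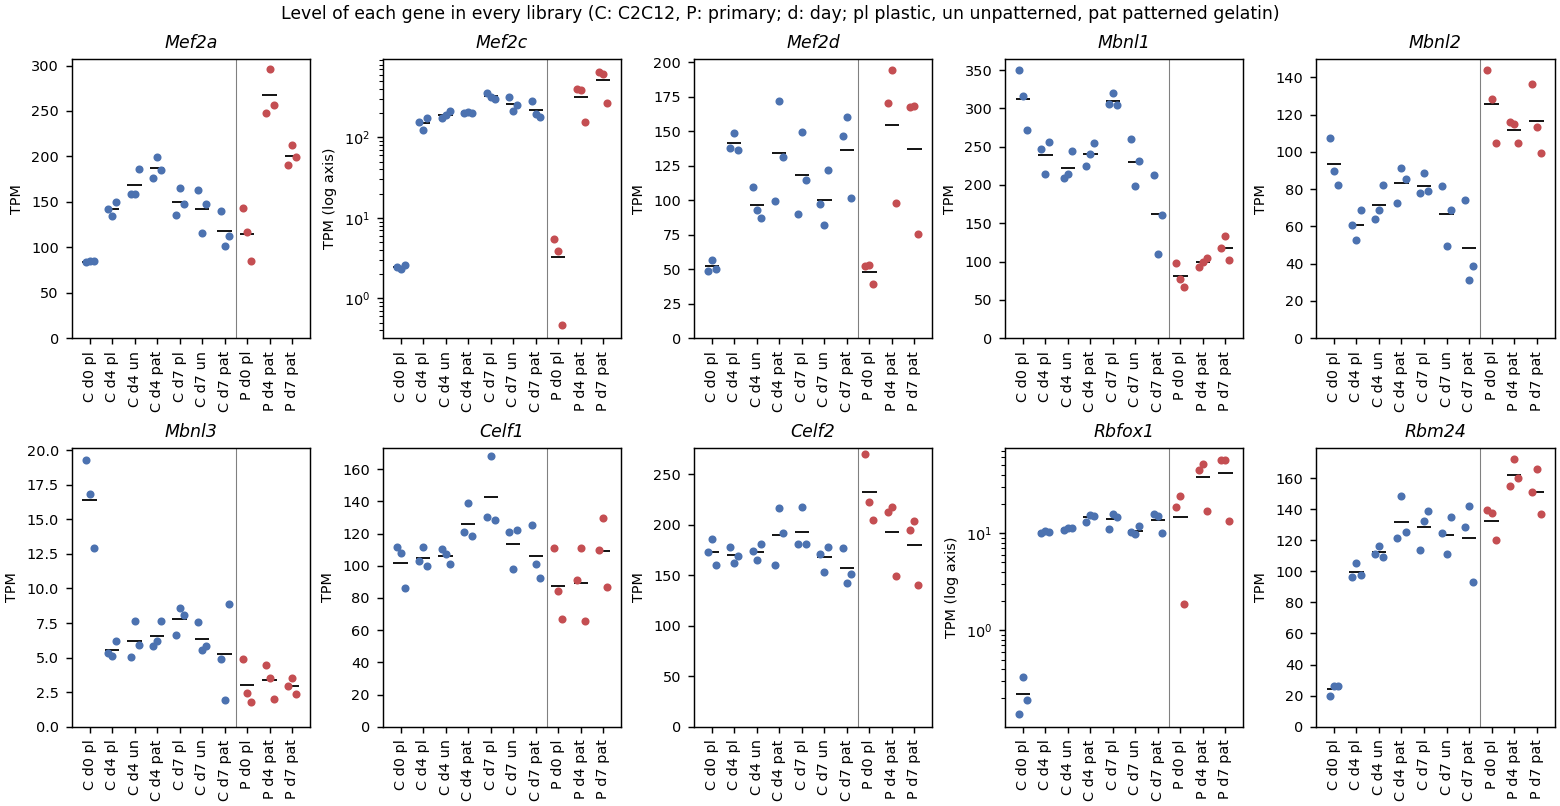
TPM of each of the 10 genes (vertical axis, on a log scale for Mef2c and Rbfox1) in the 10 conditions (horizontal axis), with a point for each library and a black line at the mean of 3. Mef2c sits lowest at day 0 of both cell sources and Rbfox1 at day 0 of C2C12, Mbnl1 lies lower in primary cells than in most C2C12 libraries, and Celf1 and Celf2 span the narrowest ranges.

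The Mbnl genes did not share that direction. Mbnl1, the main Mbnl protein of muscle, was at 350.1, 317 and 271 TPM at day 0, at 247, 214 and 256 TPM at day 4 and at 305, 320 and 305 TPM at day 7 on plastic. Its log2 fold change was -0.24 ± 0.18 at day 4 and -0.03 ± 0.18 at day 7 against day 0 (edgeR adjusted p = 0.25 and 0.88). Mbnl2, the member most active in brain, had -0.40 ± 0.22 and -0.20 ± 0.22 on the log2 scale (edgeR adjusted p = 0.12 and 0.43). Its mean was 93.3 ± 13.0 TPM at day 0 and 60.8 ± 7.91 and 81.9 ± 6.06 TPM at days 4 and 7 (SD, n = 3). A fit of only the 2 conditions compared called it lower at day 4 (edgeR adjusted p = 0.0091), as did limma on TPM. Mbnl3, the low-abundance member that is known from dividing and regenerating muscle cells, fell. It was at 19.3, 16.8 and 12.9 TPM at day 0, at 5.34, 5.10 and 6.16 TPM at day 4 and at 6.67, 8.61 and 8.10 TPM at day 7, with no overlap with day 0. Mbnl3 fell by 1.31 ± 0.25 and 1.09 ± 0.25 on the log2 scale (edgeR adjusted p = 0.00017 and 0.00088). The summed Mbnl TPM was 422 ± 55.3 at day 0, and Mbnl1 held between 72.9% and 78.3% of it in every C2C12 condition.

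The Celf genes had the narrowest ranges of mean TPM over the 10 conditions, though Celf1 was called against day 0. Celf2 was at 173, 186 and 161 TPM at day 0, at 178, 162 and 169 TPM at day 4 and at 181, 218 and 181 TPM at day 7 on plastic. Its log2 fold changes were 0.05 ± 0.10 and 0.04 ± 0.10 (edgeR adjusted p = 0.72 and 0.74). Over all 10 conditions the mean of Celf2 ranged by 1.48 times and that of Celf1 by 1.63 times, and for neither gene were 2 neighbours in the order of the conditions free of overlap. Celf1 was at 111, 108 and 86.2 TPM at day 0, at 103, 112 and 99.99 TPM at day 4 and at 131, 168 and 129 TPM at day 7. In estimated counts Celf1 rose by 0.48 ± 0.07 at day 4 and 0.69 ± 0.08 at day 7 on the log2 scale (edgeR adjusted p = 1.8e-05 and 1.2e-07). The mean effective length of the Celf1 transcripts went from 3262 to 3815 bases between days 0 and 4. With an offset for this length the log2 fold change at day 4 was 0.26, while limma on log2(TPM + 1) gave 0.05 and made no call (adjusted p = 0.78). The day 7 call held in all 8 alternative settings. On the TPM scale the median log2 fold change of all genes was shifted against that of counts by -0.157 at day 4 against day 0, by 0.159 at day 7 against day 4 on plastic and by 0.12 for patterned gelatin against plastic at day 4, and by less than 0.1 in the other C2C12 comparisons.

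**Figure D4:**
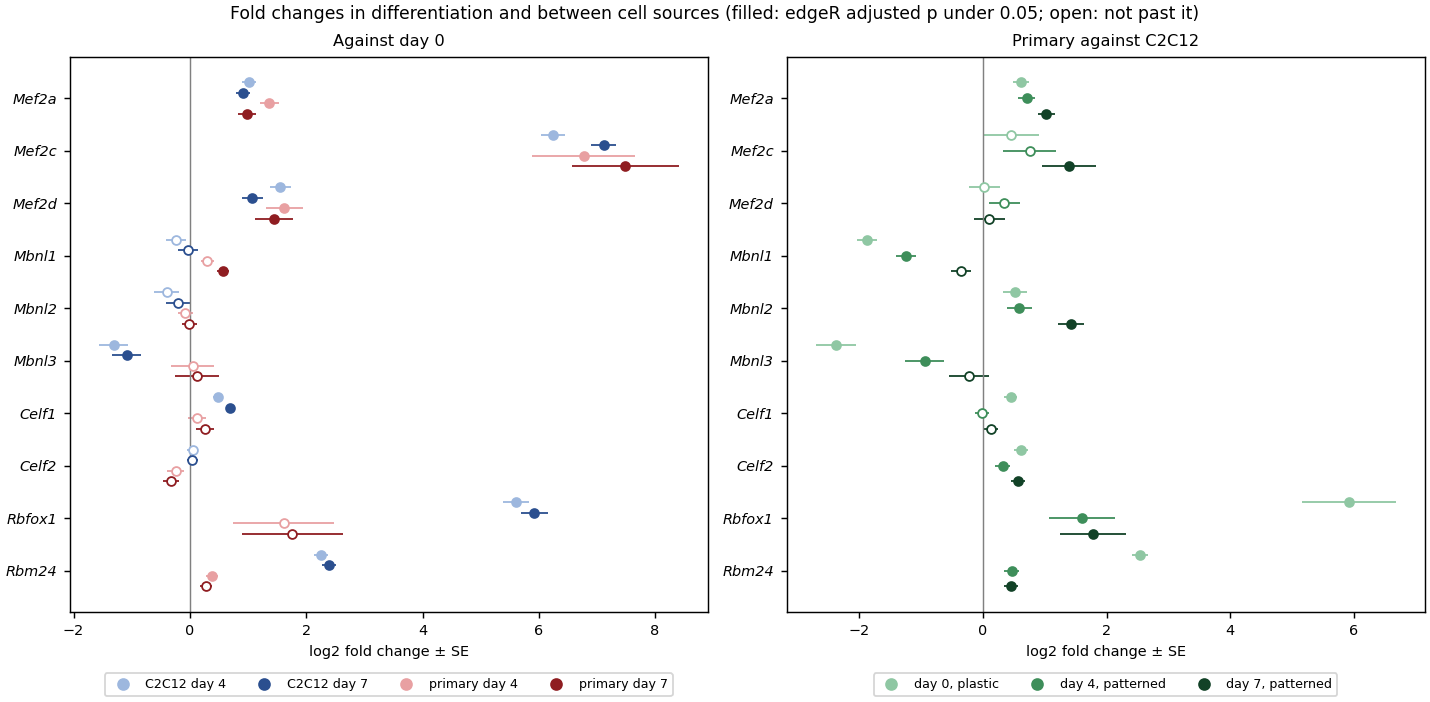
Log2 fold change with its standard error (horizontal axis) of the 10 genes in C2C12 on plastic at days 4 and 7 against day 0, in primary cells at days 4 and 7 against day 0, and in primary cells against C2C12 at each day. Filled symbols passed the edgeR test at an adjusted p under 0.05; Mef2c has the largest change against day 0 in both cell sources, and Mbnl1 lies below 0 in primary cells against C2C12 at all 3 days.

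The second comparison asked whether levels moved on between days 4 and 7. On plastic Mef2c alone was called, rising by 0.87 ± 0.17 on the log2 scale (edgeR adjusted p = 0.0021), against 14.8% of all genes called. Celf1 (0.22 ± 0.07, edgeR adjusted p = 0.059) was called by DESeq2, with the block and by limma on TPM (lowest adjusted p = 0.017) and in 3 of the 21 fits that left out a library, among them those without replicate 2 or 3 of day 7 on patterned gelatin. Rbfox1 (edgeR adjusted p = 0.15) was called without that replicate 3 (edgeR adjusted p = 0.038). Mef2d, at -0.48 (edgeR adjusted p = 0.086), was called in a fit of only the 2 conditions compared (edgeR adjusted p = 0.042) and without replicate 2 of day 7 on plastic (edgeR adjusted p = 0.038). On unpatterned gelatin no gene of the 10 passed in edgeR or DESeq2, against 2.92% of all genes called by edgeR. An unadjusted edgeR p under 0.05 was found for 2 of the 10 and for 2247 of all genes. The log2 fold changes there ran from -0.28 for Mef2a to 0.41 for Mef2c (edgeR adjusted p = 0.26 and 0.22). On patterned gelatin 4 of the 10 fell and none rose, against 20.3% of all genes called and 9.03% called lower. Fragment length was read from the difference between the length and the effective length of long transcripts. It was 176 to 190 bases in the 3 day 7 libraries and 233 to 248 bases in the 3 day 4 libraries. Mitochondrial genes held 0.902% to 1.93% and 2.73% to 4.24% of their counts. On plastic at day 7 fragments were 177 to 199 bases long and the mitochondrial share was 2.72% to 4.02%. The part of either in these changes was not tested.

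Mef2a had the firmest of these falls. It was at 176, 199 and 185 TPM at day 4 on patterned gelatin and at 140, 101 and 112 TPM at day 7, without overlap, and fell by 0.74 ± 0.12 on the log2 scale (edgeR adjusted p = 0.0011). Mbnl1 was at 225, 241 and 255 TPM at day 4 and at 214, 110.0 and 161 TPM at day 7, and fell by 0.65 ± 0.18 (edgeR adjusted p = 0.017). Mbnl2 was at 72.3, 91.4 and 85.4 TPM and then at 74.2, 31.5 and 38.9 TPM, and fell by 0.79 ± 0.22 (edgeR adjusted p = 0.018). Replicate 1 of day 7 overlapped the day 4 range for Mbnl2, and replicate 2 was the lowest library for both Mbnl genes. Celf2 fell by 0.35 ± 0.10 (edgeR adjusted p = 0.020), from a mean of 190 ± 28.0 to 157 ± 18.2 TPM (SD, n = 3). Mef2a stayed called with any library left out, though not in a fit of only the 2 conditions compared (edgeR adjusted p = 0.0501), where none of the 4 passed. The other 3 calls were lost when some libraries were left out. Without replicate 2 of day 7 the log2 fold changes of Mbnl1, Mbnl2 and Celf2 were -0.44, -0.55 and -0.32 (edgeR adjusted p = 0.050, 0.056 and 0.054). Without replicate 3 of day 7 they were -0.64, -0.73 and -0.30 (edgeR adjusted p = 0.056, 0.071 and 0.079). All 3 were also lost without replicate 3 of day 4, and those of Mbnl2 and Celf2 without replicate 2 of day 4. Celf2 was not called by limma on TPM. Mbnl3, at -0.66 ± 0.27 (edgeR adjusted p = 0.088), was called without replicate 1 or 3 of day 7, and without replicate 3 its log2 fold change was -0.94 (edgeR adjusted p = 0.044). Mef2c, which was at 202, 209 and 201 TPM at day 4 on patterned gelatin and at 280, 194 and 180 TPM at day 7, did not pass here (0.05 ± 0.17, edgeR adjusted p = 0.85).

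The difference between those courses was tested itself. The change from day 4 to day 7 on patterned gelatin less that on plastic was below 0 for 4 of the 10 genes, against 11.7% of all genes called and 5.5% called lower. It was -0.64 ± 0.17 on the log2 scale for Mef2a, -0.82 ± 0.23 for Mef2c, -0.86 ± 0.25 for Mbnl1 and -0.99 ± 0.31 for Mbnl2 (edgeR adjusted p = 0.032, 0.037, 0.038 and 0.045). Mef2c accordingly rose on plastic and not on patterned gelatin, whereas Mef2a and the Mbnl genes were lower at day 7 on patterned gelatin with log2 fold changes of -0.10 for Mef2a, 0.21 for Mbnl1 and 0.20 for Mbnl2 on plastic (edgeR adjusted p = 0.62, 0.45 and 0.58). These calls were near the threshold: they held in 14, 12, 12 and 6 of the 21 fits that left out a library, and none of the 4 held without replicate 3 of day 7 on patterned gelatin (edgeR adjusted p between 0.055 and 0.082), while their sizes changed little. All 4 were likewise lost without replicate 1 or 2 of day 4 on plastic. The same held without any replicate of day 4 on patterned gelatin or without replicate 3 of day 7 on plastic. Without replicate 1 of the same libraries Celf2 was called as well (edgeR adjusted p = 0.017).

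**Figure D5:**
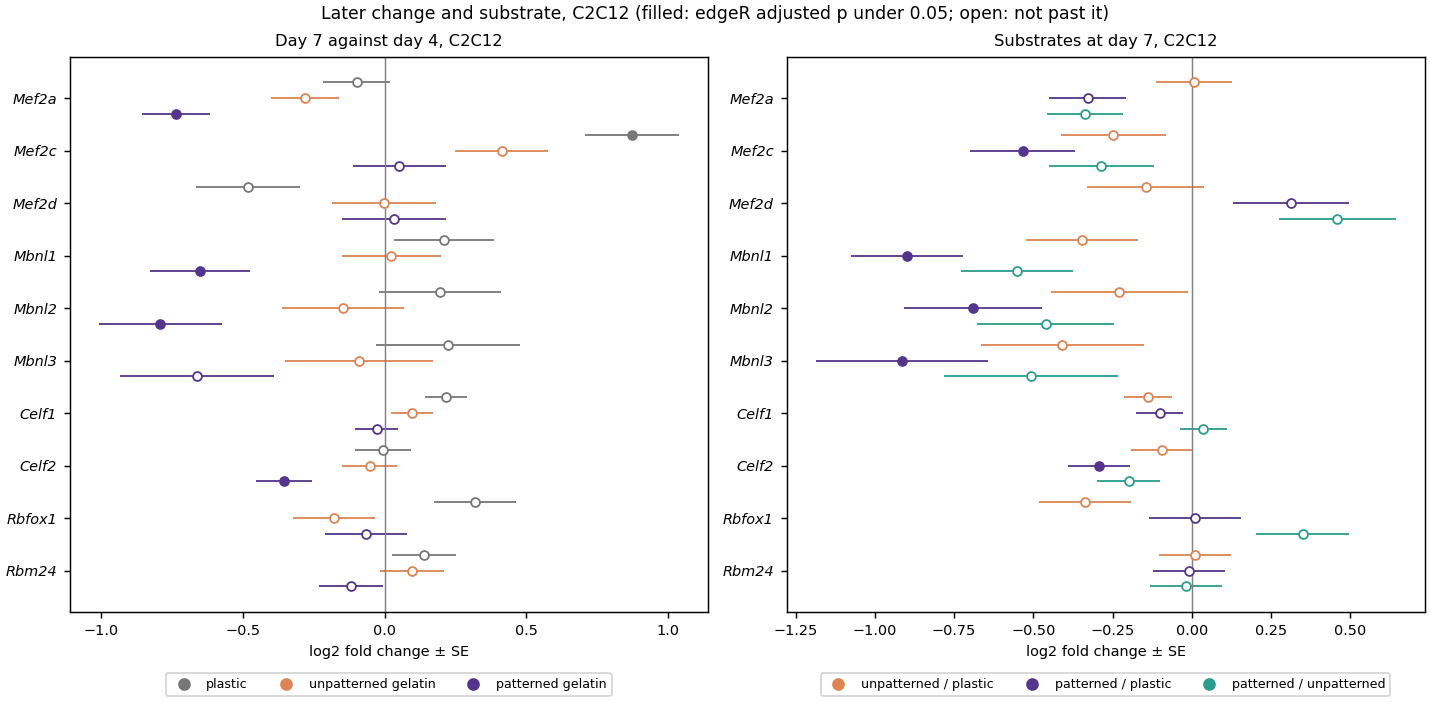
Log2 fold change with its standard error (horizontal axis) of the 10 genes in C2C12, for day 7 against day 4 on each substrate and for the pairs of substrates at day 7. Filled symbols passed the edgeR test at an adjusted p under 0.05; on patterned gelatin Mef2a, Mbnl1, Mbnl2 and Celf2 lie below 0 from day 4 to day 7, and no symbol is filled for patterned against unpatterned gelatin.

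The third comparison was between substrates at a given day, which is the question the hydrogels were made for. Patterned and unpatterned gelatin differed for none of the 10 genes at day 4 in edgeR or DESeq2, against 0.00674% of all genes called by edgeR. An unadjusted edgeR p under 0.05 was found for 2 of the 10 and for 1281 of all genes. At day 7 edgeR called none as well, against 0.546% of all genes. An unadjusted edgeR p under 0.05 was found for 5 of the 10 and for 2943 of all 14844 genes. DESeq2 called Mbnl1 (adjusted p = 0.048), among 476 of 13107 genes. Without replicate 1 on patterned gelatin edgeR called Mbnl1, Mbnl2 and Mef2a lower there than on unpatterned gelatin (adjusted p = 0.016, 0.021 and 0.030). Without replicate 2 or 3 it called none of the 10. The means at day 7 were 230 ± 30.5 TPM on unpatterned and 161 ± 51.8 TPM on patterned gelatin for Mbnl1 (SD, n = 3), with a log2 fold change of -0.55 ± 0.18 (edgeR adjusted p = 0.13). Rbfox1 was at 10.2, 9.69 and 11.8 TPM on unpatterned and at 15.5, 14.8 and 10.1 TPM on patterned gelatin, a log2 fold change of 0.35 (edgeR adjusted p = 0.21). The libraries overlap through replicate 3, and without it the log2 fold change was 0.52 ± 0.12 (edgeR adjusted p = 0.054). The pattern effect at day 7 less that at day 4 was called for no gene of the whole table, 0.0% of 14844, with 1064 genes at an unadjusted p under 0.05 and 4 of the 10 among them, and DESeq2 called 4 genes, none of them a member.

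Against plastic, unpatterned gelatin at day 4 had lower Mef2d, at 109, 93.1 and 87.2 TPM against 138, 149 and 137 TPM without overlap (-0.63 ± 0.18 on the log2 scale, edgeR adjusted p = 0.043), against 7.89% of all genes called. That call held in 10 of the 21 fits that left out a library and was not made by limma on log2(TPM + 0.1) or log2(TPM + 1) (adjusted p up to 0.12). Patterned gelatin at day 4, where Mef2d was at 99.7, 172 and 131 TPM, did not differ detectably from plastic for any of the 10 in edgeR or DESeq2 (3 of the 10 and 2720 of all genes had an unadjusted edgeR p under 0.05), against 3.55% of all genes called by edgeR. The largest log2 fold change there was that of Rbfox1, 0.40 ± 0.14 (edgeR adjusted p = 0.14). Rbfox1 was called without replicate 3 of day 7 on patterned gelatin (edgeR adjusted p = 0.033). A fit of only the 2 conditions compared called Rbfox1, Mef2a and Rbm24 (edgeR adjusted p = 0.0052, 0.018 and 0.017).

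At day 7, 5 of the 10 genes had lower levels on patterned gelatin than on plastic and none a higher level, against 23.8% of all genes called and 10.9% called lower. Mbnl1 was at 305, 320 and 305 TPM on plastic and at 214, 110.0 and 161 TPM on patterned gelatin, with no overlap and a log2 fold change of -0.90 ± 0.18 (edgeR adjusted p = 0.0034), and this call held with any of the 21 libraries left out. Mbnl2 (-0.69 ± 0.22), Mbnl3 (-0.92 ± 0.27), Mef2c (-0.53 ± 0.17) and Celf2 (-0.29 ± 0.10) were also lower (edgeR adjusted p = 0.030, 0.023, 0.028 and 0.039). Mbnl3 was at 6.67, 8.61 and 8.10 TPM on plastic and at 4.91, 1.96 and 8.86 TPM on patterned gelatin, so that replicate 3 overlapped plastic. Mef2c was at 280, 194 and 180 TPM on patterned gelatin against 354, 316 and 301 TPM on plastic. Without replicate 2 of the patterned libraries Mbnl1 and Mbnl3 stayed called and Mbnl2, Mef2c and Celf2 did not (edgeR adjusted p = 0.10, 0.084 and 0.10), and without replicate 3 it was again Mbnl1 and Mbnl3 (edgeR adjusted p = 0.013 and 0.014) that stayed. The log2 fold change of Mbnl3 was -0.53 without replicate 2 and -1.19 without replicate 3, and its call was lost without replicate 2 on plastic (edgeR adjusted p = 0.056). The calls of Mbnl2 without any 1 of the plastic libraries, of Mef2c without replicate 1 on plastic and of Celf2 without replicate 2 on plastic or with no filter on low counts were lost too. In a fit of only the 2 conditions compared none of the 5 passed (edgeR adjusted p = 0.18 for Mbnl1), and Mbnl3 and Celf2 did not pass by limma on TPM or with an offset for transcript length. Mef2a (-0.33 ± 0.12, edgeR adjusted p = 0.053) was called lower by DESeq2, with the block and by limma on TPM (lowest adjusted p = 0.036), and without replicate 1 on patterned gelatin (edgeR adjusted p = 0.0066). Celf1 (-0.10 ± 0.07, edgeR adjusted p = 0.33) was called lower with the length offset and by limma on TPM (lowest adjusted p = 0.019). Unpatterned gelatin at day 7 did not differ detectably from plastic for any of the 10 in edgeR or DESeq2, against 3.46% of all genes called by edgeR. An unadjusted edgeR p under 0.05 was found for 1 of the 10 and for 2883 of all genes.

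The same questions were put to primary cells, which started from another point. At day 4 against day 0 edgeR called 4 of the 10 genes higher and none lower, and at day 7 again 4 higher and none lower, against 42.6% and 46.9% of all 14352 genes called. The median log2 fold change of the 10 was 0.34 and 0.42, against -0.04 and -0.02 over all genes. The part of substrate and of time cannot be told apart in these comparisons.

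All 3 Mef2 genes rose in primary cells. Mef2c was at 5.50, 3.90 and 0.462 TPM at day 0, at 399, 387 and 156 TPM at day 4 and at 652, 604 and 269 TPM at day 7. Replicate 3 was the lowest library at each day and still far above day 0 later on. Mef2c rose by 6.77 ± 0.89 and 7.49 ± 0.92 on the log2 scale (edgeR adjusted p = 0.00048 and 0.00027). Mef2d was at 52.0, 53.0 and 39.0 TPM at day 0, at 170, 195 and 97.9 TPM at day 4 and at 168, 168 and 75.1 TPM at day 7, and rose by 1.62 ± 0.32 and 1.45 ± 0.32 (edgeR adjusted p = 0.0038 and 0.0057). Mef2a was at 143, 117 and 84.7 TPM at day 0, at 248, 296 and 257 TPM at day 4 and at 190, 213 and 199 TPM at day 7. It rose by 1.37 ± 0.16 and 0.98 ± 0.16 (edgeR adjusted p = 0.00028 and 0.0012), and here replicate 3 did not stand apart after day 0. Without the 3 libraries numbered 3 the log2 fold changes of Mef2c were 6.60 and 7.32. Those of Mef2d were 1.78 and 1.67 and those of Mef2a 1.24 and 0.87, and all 6 passed. In that fit 56.6% and 60.4% of all genes were called at days 4 and 7, against 42.6% and 46.9% with all libraries. The same background holds for the later calls against day 0 made without those libraries.

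Rbfox1 and Rbm24 were already present in primary cells at day 0. Rbfox1 was at 18.7, 23.8 and 1.86 TPM at day 0, at 44.4, 51.2 and 16.9 TPM at day 4 and at 56.0, 56.0 and 13.2 TPM at day 7. Replicate 3 was thus low at every day, while each later library was higher than the day 0 library of the same number. Its log2 fold change was 1.61 ± 0.87 and 1.76 ± 0.87 and did not pass (edgeR adjusted p = 0.17 and 0.13). With the replicate number as a block it rose by 2.03 ± 0.39 and 1.99 ± 0.38 (edgeR adjusted p = 0.0029 and 0.0027), and without replicate 3 by 1.45 ± 0.17 and 1.71 ± 0.17 (edgeR adjusted p = 0.00014 and 4.5e-05). Rbm24 was at 139.7, 138 and 120.1 TPM at day 0, at 155, 172 and 159.9 TPM at day 4 and at 151, 166 and 137 TPM at day 7. It rose by 0.38 ± 0.11 at day 4 (edgeR adjusted p = 0.019), and at day 7 its log2 fold change of 0.28 ± 0.11 did not pass (edgeR adjusted p = 0.057) but did with the block (0.28 ± 0.09, edgeR adjusted p = 0.024). The day 4 call of Rbm24 was lost by limma on TPM (adjusted p up to 0.063) and without replicate 1 of day 0 or replicate 2 or 3 of day 4. With all 3 libraries numbered 3 left out, Rbm24 rose by 0.34 and 0.33 at days 4 and 7 (edgeR adjusted p = 0.020 for both).

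Mbnl1 rose in primary cells at day 7, by 0.57 ± 0.11 on the log2 scale (edgeR adjusted p = 0.0028), from 98.6, 77.5 and 66.4 TPM at day 0 to 118, 133 and 102 TPM without overlap. At day 4, with 93.3, 99.4 and 105 TPM, its log2 fold change was 0.30 ± 0.11 (edgeR adjusted p = 0.053, and 0.031 with the block). Mbnl2 stayed within 99.5 and 144 TPM and Mbnl3 within 1.78 and 4.93 TPM over the 9 primary libraries, and their log2 fold changes against day 0 were no further from 0 than 0.12. Celf2 had -0.24 ± 0.14 and -0.32 ± 0.14 (edgeR adjusted p = 0.20 and 0.095), and with the block it fell by 0.25 ± 0.09 and 0.33 ± 0.09 (edgeR adjusted p = 0.040 and 0.013). Celf1 had 0.26 ± 0.16 at day 7 (edgeR adjusted p = 0.21), and with the block it rose by 0.26 ± 0.09 (edgeR adjusted p = 0.032). With the libraries numbered 3 left out, Mbnl1 had 0.27 and 0.64 at days 4 and 7 (edgeR adjusted p = 0.053 and 0.00073), Celf2 -0.13 and -0.23 (edgeR adjusted p = 0.25 and 0.062) and Celf1 0.19 and 0.30 (edgeR adjusted p = 0.24 and 0.069). Between days 4 and 7 none of the 10 passed in edgeR or DESeq2 (2 had an unadjusted p under 0.05), and over all genes edgeR called 0.0%, with 666 genes at an unadjusted p under 0.05 and 43 genes called by DESeq2. Without the libraries numbered 3 edgeR called 0.855% of all genes and none of the 10.

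The last comparison set primary cells against C2C12 at matched day and substrate label. Cell source and culture cannot be told apart in it, and the sources differ in their marker sums at day 0 as given above. At day 0, 6 of the 10 genes were higher and 2 lower in primary cells, at day 4 on patterned gelatin 5 were higher and 2 lower, and at day 7 on patterned gelatin 6 were higher and none lower. Over all 15447 genes 57.5%, 50.6% and 51.5% were called. In TPM the median of all genes shifted by -0.091, -0.142 and -0.10 on the log2 scale relative to counts. The 6 calls at day 7 held with any library left out.

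Rbfox1 and Rbm24 had the largest differences at day 0. Rbfox1 was higher in primary cells by 5.92 ± 0.76 on the log2 scale at day 0, by 1.60 ± 0.53 at day 4 and by 1.78 ± 0.54 at day 7 (edgeR adjusted p = 4.2e-07, 0.015 and 0.0074). At day 0 the 3 primary libraries, the low replicate 3 included, were above the C2C12 libraries, whose highest value was 0.331 TPM. Later that replicate, at 16.9 and 13.2 TPM, was close to the C2C12 range on patterned gelatin, which was 13.2 to 15.3 TPM at day 4 and 10.1 to 15.5 TPM at day 7. Without replicate 2 of primary day 4 the day 4 call of Rbfox1 was lost (edgeR adjusted p = 0.064). Rbm24 was higher by 2.54 ± 0.13, 0.47 ± 0.12 and 0.45 ± 0.12 (edgeR adjusted p = 2.4e-14, 0.0022 and 0.0026). By limma on TPM the day 4 calls of both genes were not made (adjusted p up to 0.11 and 0.061). At day 7 limma on log2(TPM + 0.1) did not call Rbfox1 (adjusted p = 0.066), and a fit of only the 2 conditions compared did not call Rbm24 (edgeR adjusted p = 0.076). Without the primary libraries numbered 3 the log2 fold changes were 6.46, 1.94 and 2.24 for Rbfox1. For Rbm24 they were 2.58, 0.44 and 0.54, and all 6 passed. In that fit 60.9%, 53.5% and 56.3% of all genes were called at days 0, 4 and 7. With all libraries these shares were 57.5%, 50.6% and 51.5%. The same background holds for the later calls of primary cells against C2C12 made without those libraries.

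The Mef2 genes differed by member. Mef2a was higher in primary cells by 0.61 ± 0.13, 0.71 ± 0.13 and 1.03 ± 0.13 on the log2 scale at days 0, 4 and 7 (edgeR adjusted p = 0.00038, 0.00011 and 7.9e-07). Mef2c was higher at day 7, by 1.39 ± 0.43 (edgeR adjusted p = 0.0090; 0.067 by limma on log2(TPM + 0.1)). Its log2 fold changes of 0.45 ± 0.45 at day 0 and 0.76 ± 0.43 at day 4 did not pass (edgeR adjusted p = 0.41 and 0.14). Without the 3 primary libraries numbered 3 these were 0.98 and 1.07 and passed (edgeR adjusted p = 0.00019 and 2.3e-05), that of day 7 was 1.72, and Mef2a had 0.76, 0.70 and 1.05, all of which passed. Mef2d did not pass at any day, with 0.02, 0.34 and 0.10 (edgeR adjusted p = 0.95, 0.27 and 0.76), and without those libraries it was higher at day 4 by 0.58 (edgeR adjusted p = 0.013), while 0.13 at day 0 and 0.41 at day 7 did not pass (edgeR adjusted p = 0.58 and 0.070).

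The Mbnl genes moved apart. Mbnl1 was lower in primary cells by a log2 fold change of -1.88 ± 0.17 at day 0 and -1.25 ± 0.16 at day 4 (edgeR adjusted p = 9.5e-10 and 8.2e-07). At day 7 its log2 fold change of -0.35 ± 0.16 did not pass (edgeR adjusted p = 0.069). Mbnl2 was higher by 0.52 ± 0.20, 0.59 ± 0.20 and 1.43 ± 0.20 (edgeR adjusted p = 0.030, 0.017 and 2.6e-06), of which the day 7 call alone was also made by limma on TPM. Mbnl3 was lower by a log2 fold change of -2.38 ± 0.33 at day 0 and -0.95 ± 0.32 at day 4 (edgeR adjusted p = 1.1e-06 and 0.016). The day 4 call of Mbnl3 was lost with an offset for transcript length (edgeR adjusted p = 0.066) and without replicate 3 of C2C12 or replicate 2 or 3 of primary cells at day 4. The day 0 call of Mbnl2 was lost without replicate 2 or 3 of C2C12 or replicate 1 or 2 of primary cells at day 0, and its day 4 call without replicate 1 of C2C12 at day 4. Mbnl1 held 38.5%, 46.3% and 49.7% of the summed Mbnl TPM of primary cells at days 0, 4 and 7 and Mbnl2 held 60.1%, 52.2% and 49.1%, where Mbnl1 held at least 72.9% in C2C12. The day 4 to day 7 change of Mbnl1 on patterned gelatin was 0.90 ± 0.23 higher in primary cells than in C2C12 on the log2 scale (edgeR adjusted p = 0.062), a contrast for which edgeR called none of the 10 and 0.77% of all genes. DESeq2 called it, among 483 of 13153 genes, as did the block (lowest adjusted p = 0.012). Without the primary libraries numbered 3 it was 1.01 and passed (edgeR adjusted p = 0.032), against 3.91% of all genes called in that fit. It passed as well without replicate 3 of primary day 0 or day 7 alone or without replicate 1 of the patterned day 7 C2C12 libraries. In that last fit Mbnl2 passed too (edgeR adjusted p = 0.012). Without replicate 2 of the patterned day 7 C2C12 libraries the log2 fold change of Mbnl1 at day 7 was -0.55 ± 0.15 (edgeR adjusted p = 0.0034), and limma on TPM called it with all libraries (lowest adjusted p = 0.046). Without the primary libraries numbered 3, at days 0, 4 and 7, Mbnl1 had -1.84, -1.27 and -0.26, of which the last did not pass (edgeR adjusted p = 0.25). Mbnl2 then had 0.61, 0.60 and 1.53 and Mbnl3 -2.10 and -0.73 at days 0 and 4, all of which passed.

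Celf2 was higher in primary cells by 0.62 ± 0.12, 0.32 ± 0.12 and 0.57 ± 0.12 on the log2 scale (edgeR adjusted p = 9.1e-05, 0.026 and 0.00031). By limma on TPM the calls at days 4 and 7 were not made (adjusted p up to 0.93 and 0.33). The day 4 call of Celf2 was also lost with an offset for transcript length, in a fit of only the 2 conditions compared, and without replicate 1 of C2C12 or replicate 1 or 2 of primary cells at day 4. Celf1 was higher at day 0 by 0.45 ± 0.11 in estimated counts (edgeR adjusted p = 0.0015), but its level was 87.5 ± 22.4 TPM in primary cells and 102 ± 13.7 TPM in C2C12 (SD, n = 3). The mean effective length of Celf1 was 5003 bases in primary cells and 3262 bases in C2C12, and with an offset for this length the log2 fold change was -0.096. The direction of Celf1 at day 0 is therefore not settled by these data, and at days 4 and 7 it did not pass (-0.01 and 0.13, edgeR adjusted p = 0.94 and 0.34). At day 4 limma on TPM called Celf1 (lowest adjusted p = 0.022). Without the primary libraries numbered 3 Celf1 was higher at day 7 by 0.24 (edgeR adjusted p = 0.038), and Celf2 had 0.66, 0.45 and 0.69, all of which passed.

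In the order of the 10 conditions by mean TPM, Mef2c ran from 2.45 TPM in C2C12 at day 0 to 508 TPM in primary cells at day 7, a range of 208 times, and Rbfox1 from 0.220 to 41.7 TPM between the same conditions, a range of 190 times. Rbm24 ran over 6.71 times, Mbnl3 over 5.60, Mbnl1 over 3.87, Mef2d over 3.22, Mef2a over 3.17 and Mbnl2 over 2.61 times. In these 10 orders 9 steps between neighbours were free of overlap between libraries. The share of such steps over all genes was not computed, so the count describes these genes and is not set against others. For Mef2c it was the step from primary day 0 to C2C12 day 4 on plastic, for Rbfox1 that from C2C12 day 0 to C2C12 day 4 on plastic, and for Mef2d that from C2C12 day 0 to C2C12 day 4 on unpatterned gelatin. For Mbnl1 it was that from C2C12 day 4 on patterned gelatin to C2C12 day 7 on plastic and for Mbnl3 that from C2C12 day 7 on plastic to C2C12 day 0. Mef2a and Rbm24 had 2 such steps each, and Mbnl2, Celf1 and Celf2 none.

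The genes most like each member were found by Pearson's r of mean log2 CPM (counts scaled to library size) over the 10 conditions, among 11552 genes, as a description over points that share libraries and the contrast of myoblast and myotube. For Mef2c they were Cog6, Pkhd1 and Fabp3 (r = 0.998, 0.997 and 0.997). For Rbfox1 they were Pygm, Flnc and Tmem246 (0.994, 0.991 and 0.990), and for Rbm24 they were Sik1, Rbfox1 and Sgca (0.990, 0.983 and 0.978). Pygm encodes muscle glycogen phosphorylase, Flnc the filamin of muscle and Sgca alpha-sarcoglycan. For Mef2a they were Patj, Larp4b and Arel1 (0.970, 0.968 and 0.965) and for Mef2d Dlgap4, Dgkz and Mgrn1 (0.980, 0.978 and 0.976). For Mbnl1 they were Gin1, Gm14419 and H2-Q4 (0.989, 0.985 and 0.976), for Mbnl2 Itga4, Abi1 and Ofd1 (0.977, 0.973 and 0.969) and for Mbnl3 Strn, Rabl3 and Thap2 (0.980, 0.972 and 0.971). For Celf1 they were Aen, Kcnc1 and Zfp652 (0.975, 0.973 and 0.965) and for Celf2 Zfp521, Jrkl and Plag1 (0.983, 0.980 and 0.978).

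Other genes of these pathways were followed from 3 lists. Of 28 other splicing regulators 22 were tested, and against day 0 on plastic in C2C12 5 rose and 14 fell at day 4 and 6 rose and 13 fell at day 7, with median log2 fold changes of -0.51 and -0.58. Of all genes 58.0% and 62.8% were called at these days, and 42.6% and 46.9% in primary cells. Ptbp1, the polypyrimidine tract binding protein that represses muscle and neuronal exons, fell by 1.76 ± 0.07 and Hnrnpa1, a general splicing repressor, by 1.65 ± 0.08 at day 7. Rbm38, an RNA-binding protein of differentiation, rose by 3.15 ± 0.12 at day 7 and Srpk3, a muscle kinase of splicing factors, by 3.83 ± 0.18 at day 4 (edgeR adjusted p no higher than 1.5e-12 among these). In primary cells 2 rose and 11 fell at day 4 and 2 rose and 10 fell at day 7, with medians of -0.52 and -0.71, among them Ptbp3, which fell by 1.53 ± 0.13 at day 7.

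Of 13 known Mef2 target genes of muscle 12 rose and 1 fell at both days in C2C12 on plastic, with median log2 fold changes of 4.81 and 4.72, against 58.0% and 62.8% of all genes called. Myom1 and Smpx, which encode sarcomere proteins, rose by 5.25 ± 0.11 and 6.83 ± 0.16 at day 7. In primary cells 10 rose and 1 fell at both days, with medians of 4.25 and 4.33, against 42.6% and 46.9% of all genes. Slc2a4, the insulin-responsive glucose transporter, rose by 4.27 ± 0.23 at day 7. Slc2a4 was also higher in primary cells than in C2C12 at day 7 on patterned gelatin, by 3.13 ± 0.23 (edgeR adjusted p = 7.8e-11), whereas Myl2, a myosin light chain, was lower there at day 4 (-2.22 ± 0.30, edgeR adjusted p = 1.6e-06). Between patterned gelatin and plastic at day 7 in C2C12, 2 of the 13 were higher and 1 lower, against 23.8% of all genes called.

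Of 22 cofactors and regulators of Mef2 activity 20 were tested in C2C12 and 21 in the fits with primary cells. Against day 0 on plastic in C2C12 8 rose and 3 fell at day 4 and 9 rose and 7 fell at day 7, against 58.0% and 62.8% of all genes called. In primary cells 4 rose and 4 fell, then 4 rose and 3 fell, against 42.6% and 46.9% of all genes. Camk2a and Camk2b, kinases that relieve Mef2 from class II histone deacetylases, rose in both sources, Camk2b by 5.24 ± 0.16 in C2C12 and by 4.93 ± 0.38 in primary cells at day 7. Hdac7, a member of that class, fell by 2.62 ± 0.38 in primary cells at day 7, and Hdac9, another, was lower in primary cells than in C2C12 at day 0 (-3.67 ± 0.38, edgeR adjusted p = 1.2e-08). Hdac7 was lower also on unpatterned gelatin than on plastic at day 4 (-0.95 ± 0.19, edgeR adjusted p = 0.0079), the comparison in which Mef2d was lower. At day 7 on patterned gelatin against plastic Camk2b was higher by 0.47 ± 0.11 and, among the splicing regulators, Rbm38 by 0.49 ± 0.11, whereas Msi2 and Qk were lower (-0.50 ± 0.13 and -0.54 ± 0.14), as the Mbnl genes were (edgeR adjusted p = 0.0067, 0.0053, 0.012 and 0.013).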

How the data were processed

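RNA of 21 C2C12 and 9 primary libraries (labels: total RNA, NEBNext kit) was read in pairs on a NextSeq. The authors quantified transcripts with kallisto (build mm10 by their processing notes), whose version the sources used here do not give, and the deposited tables hold estimated counts and TPM for 88198 transcripts. Of these, 86031 were assigned to 30205 genes through GENCODE M21, 88.9% with equal length, and unassigned transcripts took 0.723% to 0.893% of counts. Estimated counts were summed per gene and rounded, TPM summed. edgeR 4.0.16 (TMM, filterByExpr, quasi-likelihood test, Benjamini-Hochberg, threshold 0.05) was fitted to the C2C12, the primary and all 30 libraries in R 4.3.3, with standard errors from the F statistic. Transcripts were tested with diffSpliceDGE and limma 3.58.1 on log2 ratios (offset 0.5). A mean of at least 50 estimated counts for a transcript was required only in an alternative setting. On simulated data diffSpliceDGE missed most shifts and most of its calls were false. The ratio test recovered 4.71% of shifts of log2 1 and 50% of those of log2 2. Shares per library therefore lead. The uncertainty of assigning reads to similar transcripts enters neither test. Exon shares were tested by exact permutation (Python 3.11.15, scipy 1.17.1).

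Alternatives were DESeq2 1.42.0, RLE factors, no filter, a length offset, only the groups compared, the replicate number as a block, limma on log2(TPM + 1) and log2(TPM + 0.1), and leaving out each library; the ratio test and leaving out primary replicate 3 were added after seeing the data. Deviations of same-numbered primary libraries correlated in all 9 pairs (0.285 to 0.830), so the block pairs them. The labels do not say that libraries of the same number share a culture or a mouse. On data simulated for the gene tests, 10.95% to 25.94% of DESeq2 calls and 3.125% to 4.188% of edgeR calls were false.

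Members, lists and tests were chosen with earlier results of these data known. The genes eligible for naming were all 10 members, up to 4 per list and family of comparisons by smallest adjusted p, and the 3 most similar genes with a mean log2 CPM of at least 1; transcripts needed a share of at least 5%. Protein sequences were not used here. A result on 1 alternative exon of Mef2a is not reported here.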

Additional observations from a re-analysis of the deposited data

Results flagged for a closer look

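The change from day 4 to day 7 on patterned gelatin less that on plastic differed from 0 by its own test for 4 genes. On the log2 scale it was -0.64 for Mef2a, where TPM went from a mean of 187 to 118 on patterned gelatin and from 142 to 149 on plastic. It was -0.82 for Mef2c, from 204 to 218 TPM on patterned gelatin and from 151 to 324 TPM on plastic. It was -0.86 for Mbnl1, from 240 to 161 TPM against 239 to 310 TPM, and -0.99 for Mbnl2, from 83.0 to 48.2 TPM against 60.8 to 81.9 TPM. The adjusted p lay between 0.032 and 0.045 (edgeR), and 11.7% of all genes were called in this contrast. No member was called without replicate 3 of the patterned day 7 libraries. The 4 calls were also lost without replicate 1 or 2 of day 4 on plastic, any replicate of day 4 on patterned gelatin or replicate 3 of day 7 on plastic. Replicate 3 of day 7 on patterned gelatin had the lowest depth, the highest sum of fibroblast markers in C2C12, the lowest mitochondrial share of counts of the 30 libraries (0.902%) and the lowest mean transcript length relative to the others. The part of any of these in these values was not tested.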

How the results depend on the processing

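Among single genes, 1337 of 1420 values under other settings stayed on the same side of the threshold, 42 lost the call and 38 gained it. A change of sign was counted as a reversal only where a call was made in either fit. There were 3 reversals, all for Celf1 in primary cells against C2C12 at day 0 (-0.096 with the length offset, -0.238 and -0.241 by limma on TPM). With a library left out 4146 of 4270 stayed on the same side and none reversed in that sense. Values without a call could still change sign. Rbfox1 from day 4 to day 7 on patterned gelatin was at -0.07 with all libraries and at 0.10 without replicate 3 of day 7. Calls among the 10 genes numbered 19 over the C2C12 time course (16 to 21 with a library left out) and 21 for primary cells against C2C12 (18 to 25). For the substrates they numbered 6, with a range of 3 (without replicate 2 on plastic or on patterned gelatin at day 7) to 10 (without replicate 1 on patterned gelatin at day 7), and for the differences of effects 4, with a range of 0 (without any of 7 libraries) to 7 (without that replicate 1). The primary time course gave 8 calls (7 to 11) and 15 with the replicate number as a block. In C2C12 same-numbered libraries did not deviate together (median correlation 0.0355, 7 of 21 closest to their own number), and the block moved 19 calls to 20 for time. Calls in the other lists numbered 311. All these counts are summed over comparisons, each of which called between 0.0% and 62.8% of all genes. No share of all genes was computed for the sums, so they show only how calls depend on the setting. Transcript calls of the Mef2 genes numbered 7 over the C2C12 time course (6 to 10, and 4 by limma diffSplice), 1 for substrates (0 to 3, 2 with the replicate block, 0 by the log ratio), 0 in primary cells (0 to 2, 3 with the replicate block, 3 by the log ratio) and 2 for primary cells against C2C12 (2 to 3, 4 by the log ratio). Tests of exon shares gave 1 to 3 calls with a library left out and 0 with shares of estimated counts. The cause was not tested. Depth limits Rbfox1, Mef2c and Mbnl3 where their counts are low.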
